A study of Mus musculus with 6 samples.

Results

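Zyx encodes zyxin, a LIM-domain protein of focal adhesions and actin stress fibres. The binding of the RNA-binding protein HNRNPA2B1 along the Zyx transcript was described in C2C12, a mouse muscle line, before and after differentiation. The positions are those of the deposited peak lists in the mouse mm9 build, and Zyx peaks were taken by position: every peak on the plus strand of chromosome 6 lying wholly between 42299500 and 42310500. Of 3895 peaks in the 4 immunoprecipitation (IP) lists, 31 met this rule. Zyx was chosen by its peaks in these lists, as a gene with peaks in each of them, so its peak numbers, positions and enrichments are descriptions and carry no test.

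The series holds 6 samples, all of C2C12, an established mouse line with no engineered allele named in the labels. The group C2C12 was undifferentiated myoblasts grown in medium with 20% fetal bovine serum, with 2 IP libraries (A and B). The group differentiated C2C12 was kept, per the labels, for 8 to 10 days in medium with 5% horse serum and ITS supplement, again with 2 IP libraries. The study's methods give a shorter differentiation time, and the lists cannot settle which applies. Each group also has 1 input sample, which was used only through the enrichments the authors calculated. All cells were exposed to 254 nm UV light at 150 mJ before HNRNPA2B1 was pulled down with a single antibody, so no group lacks the protein and none serves as a knockout control. The identity of the cells could not be checked against myogenic markers, because peak lists hold no expression levels. Read totals are not in these lists either, so the depth behind each peak is unknown.

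HNRNPA2B1 belongs to the hnRNP proteins, which coat nascent transcripts in the nucleus and take part in splicing, transport and stability of RNA. Enhanced UV crosslinking and immunoprecipitation (eCLIP) fixes a protein to the RNA it touches, recovers the fragments with an antibody and compares them with a size-matched input that was not immunoprecipitated. Zyxin recruits Ena/VASP proteins to sites of actin assembly and gathers at stretched or damaged stress fibres. Stress fibres and adhesions are remodelled as myoblasts align, fuse and build sarcomeres.

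Zyx carried HNRNPA2B1 peaks in every list. C2C12 A held 7 peaks at Zyx and C2C12 B held 5, a mean of 6 ± 1.41 (SD, n = 2). Differentiated C2C12 A held 9 and differentiated C2C12 B held 10, a mean of 9.5 ± 0.707 (SD, n = 2). Both differentiated lists thus had more Zyx peaks than either C2C12 list, by 3.5 peaks on average and by a ratio of 1.58. Abutting peaks of a list count singly here. With touching peaks joined, each C2C12 list had 4, differentiated C2C12 A 7 and differentiated C2C12 B 9, a ratio of 2. No such joined ratio was obtained for the whole lists. Counted singly, the ratio of 1.58 was below that of the whole lists. Their mean rose from 592.5 to 1355 peaks, a ratio of 2.29. The order turned once peaks of −log10 p under 8 were left out, when the ratio was 5 at Zyx, from 0.5 and 2.5 peaks, and 2.23 over the whole lists. That turn rests on few peaks and mostly on 1 library. Differentiated C2C12 B held 4 such Zyx peaks, differentiated C2C12 A 1, C2C12 B 1 and C2C12 A 0. As a share of the list, Zyx made up 1.18% of C2C12 A (95% Wilson interval 0.572 to 2.41) and 0.846% of C2C12 B (0.362 to 1.97). It made up 0.600% of differentiated C2C12 A (0.316 to 1.14) and 0.826% of differentiated C2C12 B (0.449 to 1.51), and all 4 intervals overlapped. Such intervals reflect counting error alone and take each peak as an independent event.

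The stretch of Zyx RNA covered by peaks was longer in differentiated cells. Peaks covered 273 nt in C2C12 A and 300 nt in C2C12 B (mean 286.5 ± 19.1, SD, n = 2). They covered 649 nt in differentiated C2C12 A and 909 nt in differentiated C2C12 B (mean 779 ± 184, SD, n = 2). Differentiated over C2C12, the means had a ratio of 2.72, against 3.11 for all peaks of the lists. Both differentiated values lay above both C2C12 values, by 492.5 nt between the means. The whole lists rose as well, and how many other loci separate in this way was not counted. Zyx peaks were also wider. Their median width was 39 nt in C2C12 A and 43 nt in C2C12 B, and 80 nt in differentiated C2C12 A and 84 nt in differentiated C2C12 B. Over all peaks of these lists, in the same order, the median was 15, 17, 19 and 30 nt. A peak needs enough reads to pass the authors' threshold, so more Zyx RNA per cell, more cells containing it, deeper sequencing and more binding cannot be told apart in these lists. Libraries number 2 per state, which allows no exact two-sided p below 0.333.

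Peaks of the 4 lists that touched or overlapped were joined, which gave 10 sites, numbered here in the direction of transcription from the low to the high coordinate. Site 1 lay at chr6:42303300-42303431, site 2 at chr6:42303579-42303624 and site 3 at chr6:42303668-42303866. Site 4 lay at chr6:42304223-42304325 and site 5 at chr6:42304370-42304422. These were followed by site 6 at chr6:42304521-42304671, site 7 at chr6:42304705-42304798 and site 8 at chr6:42305026-42305193. Site 9 lay at chr6:42305578-42305695. Sites 1 to 9 thus fell within 2396 nt, and site 10, at chr6:42307542-42307666, stood apart from them by 1846 nt. Together the sites covered 1189 nt, or 10.8% of the window. Which of them lie in exons, introns or untranslated sequence was not analysed here, since the annotation and genome at hand are of another build, and for the same reason no sequence of a site is shown.

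No other peak lay close to Zyx, though the spacing of other bound loci was not measured for comparison. The nearest other peak of any list on chromosome 6, on either strand, was 3216059 nt away, and no list had a peak on the minus strand of the window. In the RefSeq annotation of GRCm38, 1 other gene, Epha1, overlaps Zyx, and it is encoded on the opposite strand.

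**Figure D1:**
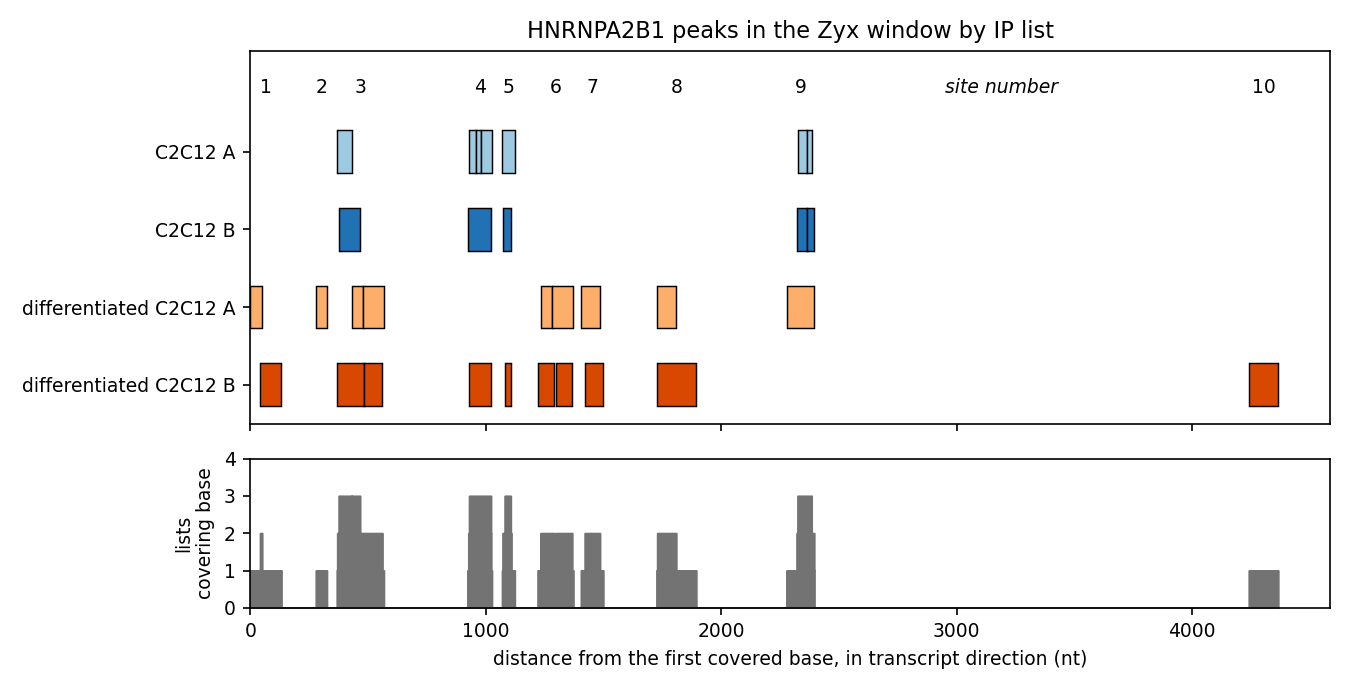
Peaks of each IP list along Zyx (boxes, upper panel) and the number of lists that cover each base (lower panel), against the distance in nt from the first covered base. Sites 1 to 9 fall within 2396 nt, site 10 is seen in differentiated C2C12 B alone, and no base is covered by all 4 lists.

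At the level of the gene, Zyx had peaks in both states. A single site, site 3, had a peak in all 4 lists, that is 1 of 10, against 7.59% of the 1015 sites of the whole series. A further 3 sites (4, 5 and 9) had a peak in exactly 3 lists, against 4.33% in the series. Sites 1, 6, 7 and 8 had a peak in both differentiated lists and in no C2C12 list, 4 of 10 against 19.8% in the series. No Zyx site was found in C2C12 alone, whether in both lists (6.9% of sites in the series) or in either (13.3%). Sites 2 and 10 were each found in a single differentiated list, 2 of 10 against 59.5% in the series. Sites of the same RNA share its abundance and are not independent, so these counts describe Zyx and were not tested against the series.

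The pattern was therefore nested. All 4 sites of C2C12 lay in both C2C12 lists, and all 4 were found in at least 1 differentiated list, so 4 of 10 Zyx sites were seen in both states, against 13.8% in the series. In the whole series 59.5% of the 173 sites with a peak in both C2C12 lists had a peak in a differentiated list. In the other direction, 6 of the 10 Zyx sites had differentiated peaks and no C2C12 peak, against 72.9% of all sites. Zyx was picked for having peaks in every list, which favours sharing between the states, so these shares are descriptions. The nesting needs both differentiated libraries. Without differentiated C2C12 B, sites 4 and 5 would be seen in C2C12 alone and 2 sites would be shared between the states. Without differentiated C2C12 A, site 9 would be seen in C2C12 alone and 3 sites would be in all remaining lists. Absence of a site from a list means that no peak there met the threshold, and binding below it was not measured.

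Peaks of the replicates were then compared by an overlap of at least 1 nt. Abutting peaks of a list were counted singly, and the C2C12 peaks lay in only 4 sites. The Wilson intervals below take peaks as independent, so they are too narrow. Zyx was chosen as a gene with peaks in every list, which favours high overlap, so the shares are descriptions. All 12 C2C12 peaks, 7 of A and 5 of B, were overlapped on the same strand by a peak of the other replicate (100%, 95% Wilson interval 75.8 to 100), against 87.8% of all C2C12 peaks. In differentiated C2C12, 14 of 19 Zyx peaks were overlapped by the other replicate (73.7%, 51.2 to 88.2), against 69.7% of all differentiated peaks. When each of the overlapping peaks had to be covered by at least 50%, the share was 66.7% for C2C12 and 42.1% for differentiated C2C12. Between the states, all 12 C2C12 peaks were overlapped by a differentiated peak of either list, against 77% of all C2C12 peaks and 49.4% of those outside the 4 domains richest in peaks. Of the 19 differentiated peaks, 5 were overlapped by a C2C12 peak (26.3%, 11.8 to 48.8), against 39.2% of all differentiated peaks and 18.8% of those outside the peak-rich domains. No single differentiated list accounted for the full overlap. Averaged over single lists, 54.2% of the C2C12 peaks were overlapped by 1 nt and 16.7% with the 50% rule. Of the 7 peaks of C2C12 A, 2 were overlapped in differentiated C2C12 A and 5 in differentiated C2C12 B. Of the 5 peaks of C2C12 B, 3 were overlapped in each.

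Counted by nucleotide, 328 nt of Zyx were covered in at least 1 C2C12 list and 1149 nt in at least 1 differentiated list, with 288 nt in common. That is 87.8% of the C2C12 stretch and 25.1% of the differentiated stretch. Both C2C12 lists covered 245 nt, of which 15 nt were covered in no differentiated list. Both differentiated lists covered 409 nt, of which 374 nt were covered in no C2C12 list. No nucleotide was covered in all 4 lists and 265 were covered in 3. At site 3, the site present in every list, 102 of 199 nt were covered in 2 lists, 89 nt in 3 and 8 nt in 1.

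Site 3 was the site with a peak in every list. The C2C12 A peak ran from 42303668 to 42303729 and the C2C12 B peak from 42303676 to 42303765. In differentiated C2C12 A, abutting peaks ran from 42303731 to 42303866, beginning just past the end of the C2C12 A peak. In differentiated C2C12 B, abutting peaks ran from 42303670 to 42303860 and spanned nearly the whole site. The downstream end of the site was thus reached in the differentiated lists alone. The log2 fold enrichment of IP over input, taken at the peak with the highest −log10 p, was 2.87 in C2C12 A and 2.82 in C2C12 B. It was 2.30 in differentiated C2C12 A and 2.36 in differentiated C2C12 B. The differentiated values were lower than both C2C12 values on average (-0.52 as differentiated minus C2C12), with an SD of about 0.04 between replicates of each state (0.0399 and 0.0439, n = 2 each). The −log10 p of these peaks was 7.28, 6.10, 7.55 and 10.0 in the same order. The differentiated C2C12 A peak used here, from 42303780 to 42303866, overlapped no C2C12 peak. Its abutting peak, from 42303731 to 42303779, had a log2 fold enrichment of 2.04. The difference and the SD therefore compare partly different stretches of RNA.

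Sites 4 and 5 were found in both C2C12 lists and in differentiated C2C12 B. Site 4 kept almost the same outline in the 3 lists, from 42304227 to 42304325 in C2C12 A, from 42304223 to 42304321 in C2C12 B and from 42304230 to 42304322 in differentiated C2C12 B. In C2C12 A this stretch was split into 3 abutting peaks, and in the other lists it was 1 peak. Its log2 fold enrichment was 3.63 in C2C12 A, 2.76 in C2C12 B and 2.92 in differentiated C2C12 B, so the differentiated value lay between the C2C12 replicates. Site 5 was the most enriched Zyx site in each of the 3 lists. Its log2 fold enrichment was 4.42 in C2C12 A, 4.19 in C2C12 B and 3.76 in differentiated C2C12 B. The differentiated value was below both C2C12 values there. The peak at site 5 was also short, at 53, 37 and 25 nt. No peak of differentiated C2C12 A lay in either site.

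Site 9 was the only Zyx site shared between C2C12 and differentiated C2C12 A but not differentiated C2C12 B. It was made of abutting peaks from 42305625 to 42305683 in C2C12 A and from 42305621 to 42305694 in C2C12 B, and of 1 peak from 42305578 to 42305695 in differentiated C2C12 A. The log2 fold enrichment was 3.51 and 3.74 in C2C12 and 2.07 in differentiated C2C12 A. The difference, -1.55 as differentiated minus C2C12, was the largest among the sites of both states. It rests on 1 differentiated value, and the SD between the C2C12 replicates was 0.161 (n = 2). The −log10 p went the other way, with 6.52 and 8.10 in C2C12 and 8.98 in differentiated C2C12 A, where the peak was wider.

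Over the 4 sites of both states the mean difference in log2 fold enrichment, differentiated minus C2C12, was -0.72, and it ranged from -1.55 at site 9 to -0.27 at site 4. With all peaks of a site averaged by width, the difference at site 4 was 0.01, while the other 3 sites stayed below 0. The states were scored against different inputs, whether replicates of a state had separate inputs is not settled by the labels and methods, and 3 of the 4 sites had a single differentiated value. At site 3 the differentiated C2C12 A peak used overlapped no C2C12 peak.

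**Figure D2:**
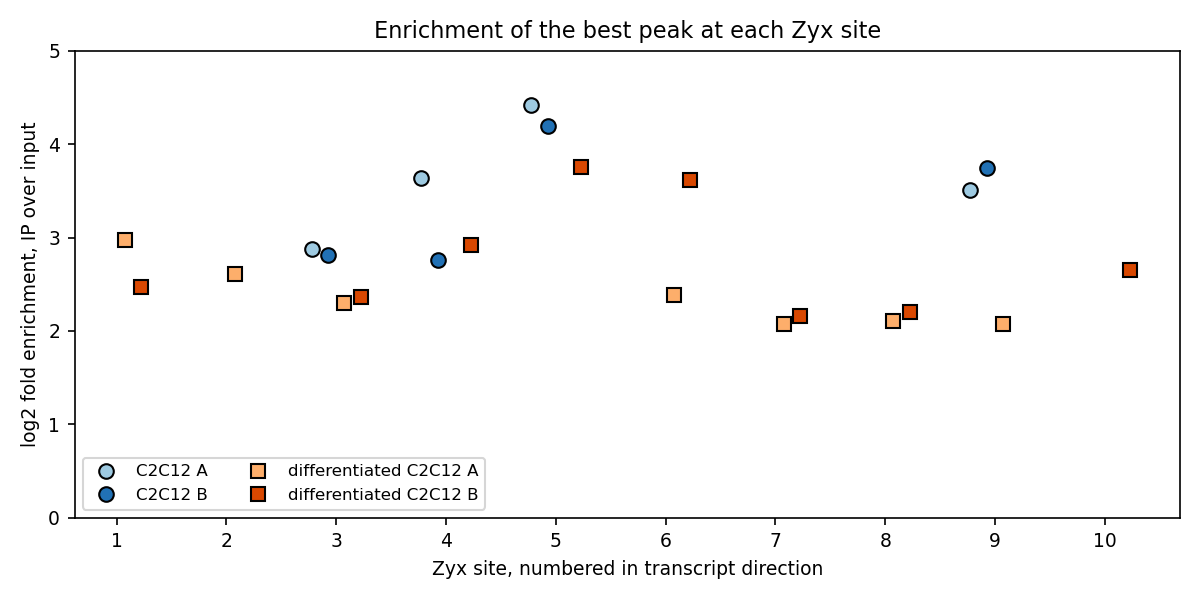
Log2 fold enrichment of IP over input at the peak with the highest −log10 p of each Zyx site, for each IP list (circles, C2C12; squares, differentiated C2C12), with no point where a list has no peak. Site 5 has the highest values, up to 4.42, and differentiated values lie below both C2C12 values at sites 3, 5 and 9.

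Sites 1, 6, 7 and 8 had peaks in both differentiated lists only. Site 6 had the highest −log10 p of them in each list. It held abutting peaks from 42304533 to 42304671 in differentiated C2C12 A and a pair of peaks from 42304521 to 42304666 in differentiated C2C12 B, and 127 of its 151 nt were covered in both. Its log2 fold enrichment was 2.39 in A and 3.62 in B, and its −log10 p was 6.14 in A and 11.1 in B, the highest of any Zyx peak. Among the sites of both differentiated lists, site 6 was the one at which the replicates differed most in enrichment.

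The other sites of both differentiated lists had lower −log10 p in each list. Site 7 had log2 fold enrichments of 2.08 and 2.16 and −log10 p of 5.99 and 5.98 in A and B, which made it the most evenly matched. Site 8 had log2 fold enrichments of 2.11 and 2.20, but the peak was 80 nt long in A and 168 nt in B, and its −log10 p was 5.14 and 9.99. At site 1 the enrichments were 2.98 and 2.47, and the peaks of A and B shared just 8 of 132 nt. Sites 2 and 10 were each seen in 1 list. Site 2 was in differentiated C2C12 A with a log2 fold enrichment of 2.61 and a −log10 p of 5.05, and it was the Zyx peak nearest to the lower limit of the lists. Site 10 was in differentiated C2C12 B with 2.65 and 5.62.

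Zyx peaks combined high enrichment with modest −log10 p. In −log10 p all 31 were below the median of their own list, against 50% of all peaks by construction. In log2 fold enrichment 30 of the 31 were above the median of their list, again against 50%. These medians include the 4 domains richest in peaks. Of the peaks not at Zyx, 492 of 1173 in C2C12 and 1408 of 2691 in differentiated C2C12 lay outside them. Medians without these domains were not computed, so whether other loci share the combination was not tested. The median log2 fold enrichment at Zyx was 3.28 in C2C12 A and 2.94 in C2C12 B, where the lists as a whole had medians of 1.77 and 2.02. It was 2.30 in differentiated C2C12 A and 2.56 in differentiated C2C12 B, where the lists had medians of 1.87 and 2.16. Zyx therefore stood further above its list in the C2C12 lists than in the differentiated lists. The best Zyx peak ranked 420 of 594 by −log10 p in C2C12 A, 381 of 591 in C2C12 B, 916 of 1499 in differentiated C2C12 A and 649 of 1211 in differentiated C2C12 B.

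The study's methods name a stricter limit, a Bonferroni-corrected −log10 p above 8. Whether the deposited p is corrected is not known. A limit of 8 on the deposited values would remove most of the Zyx peaks. No peak of the 7 in C2C12 A reached 8, where 67% of that list did. In C2C12 B 1 of 5 reached it (64.6% of the list), in differentiated C2C12 A 1 of 9 (64%) and in differentiated C2C12 B 4 of 10 (64.5%). The list shares include the domains richest in peaks, and shares without those domains were not computed. The 4 Zyx peaks of differentiated C2C12 B lay in sites 3, 4, 6 and 8, and those of C2C12 B and differentiated C2C12 A both lay in site 9. At this limit site 9 was the only Zyx site with a peak in both states, and no site was in all 4 lists. C2C12 A held Zyx through peaks below 8 alone, so at this limit Zyx would not be in every list.

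**Figure D3:**
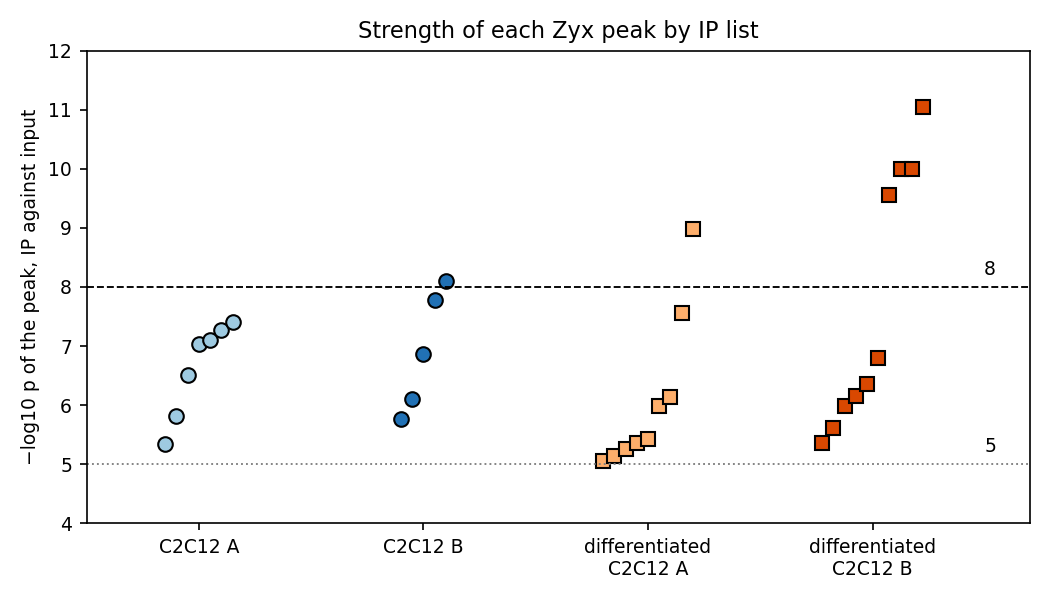
The −log10 p of each of the 31 Zyx peaks by IP list, ordered within a list from low to high, with the lower limit of the deposited lists at 5 (dotted) and a line at 8 (dashed). The study's methods name 8 for corrected p, and whether the deposited p is corrected is not known. Only 6 peaks reach 8, and 4 of them are in differentiated C2C12 B.

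To set Zyx beside other bound loci, peaks of the 4 lists on a strand were chained into 517 domains wherever the gap was at most 10 kb. Zyx was 1 of 48 domains with a peak in all 4 lists, which is 9.28% of all domains. With 31 peaks, abutting ones counted singly, it stood at a tied rank 8 of the 517 by peak number. Counting Zyx, 9 domains had as many peaks or more. By covered length it stood at rank 7. Its ratio of differentiated to C2C12 peaks, 1.58, lay close to the median of 1.67 over the 48 domains, which ran from 0.286 to 14.0, and 24 of them had a higher ratio. In the difference of mean peak numbers, 3.5 at Zyx against a median of 1.5 over the 48 domains, 11 domains were above Zyx.

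The 3 domains with the most similar peak numbers, by the Euclidean distance of log2(peaks + 1) over the 4 lists, are given by position, since genes were not assigned in this build. The first (distance 1.06), at chr4:134481583-134482246 on the plus strand, had 4 peaks in C2C12 A, 3 in C2C12 B and 7 in each differentiated list. The second (1.07), at chr10:128391134-128394259 on the plus strand, had 3 in C2C12 A, 4 in C2C12 B, 9 in differentiated C2C12 A and 8 in differentiated C2C12 B. The third (1.10), at chr9:78023113-78023234 on the minus strand, had 5 in C2C12 A, 8 in C2C12 B and 6 in each differentiated list. Joining touching peaks left 3, 3 and 1 sites in these domains, against 10 at Zyx, and a single site of each was present in all 4 lists, as at Zyx. The peaks of Zyx were thus spread over more separate sites than those of these 3 loci. They were matched by peak number alone and covered less RNA, 94 to 533 nt per list against 273 to 909 nt at Zyx. Likeness by covered length named other domains, with 0 in common.

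**Figure D4:**
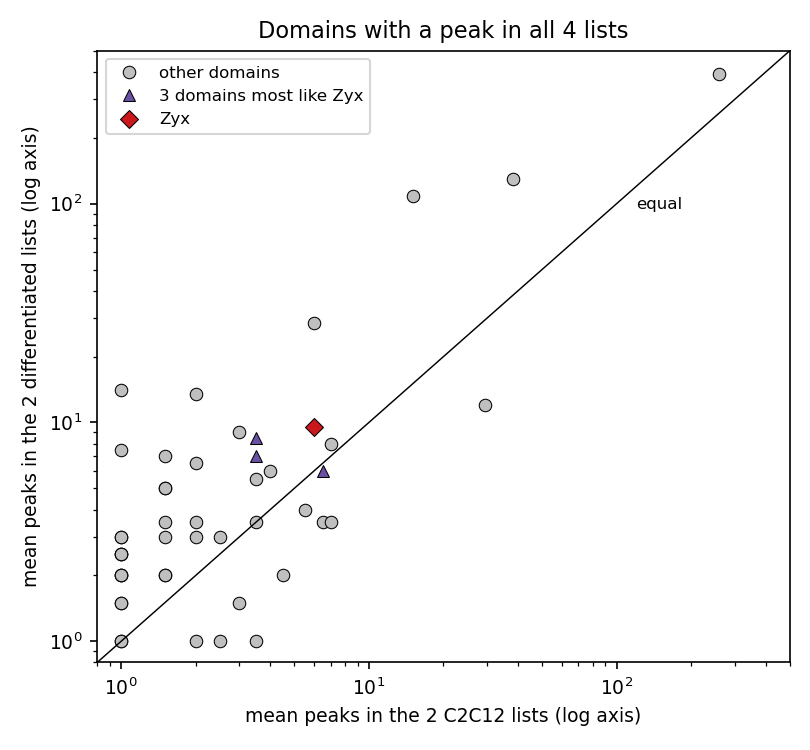
Mean number of peaks in the 2 differentiated C2C12 lists against the mean in the 2 C2C12 lists, both on log axes, for the 48 domains with a peak in all 4 lists; points can coincide, and the line marks equal numbers. Zyx (diamond) lies at 6 and 9.5 peaks, above the line, among the domains with more peaks.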

How the data were processed

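The 4 IP peak lists (2 C2C12, 2 differentiated C2C12) were analysed. According to the study's methods, the authors trimmed adapters, removed repetitive-element reads, aligned with STAR to mm9, removed PCR duplicates and called peaks with CLIPper in each library. Per the labels, nuclei were isolated first, whereas the methods give a whole-cell lysis. The authors deposited a −log10 p of IP against size-matched input reads for each peak, at least 5 and at most 400. They also deposited the log2 fold enrichment. The lists have no header, so the meaning of columns was taken from the values and the methods, and whether p is Bonferroni-corrected is not known. Removal of repeats and the threshold shape the lists, and sites in RNAs of low abundance pass it less easily. Read depth is unknown. On chromosome 7, 74 peaks ended beyond its GRCm38 length of 145441459 nt, so no reference sequence or exon annotation was used.

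Zyx and the rules were chosen with earlier results of these data known. The sites named were all Zyx sites, with single-list sites given in brief, and the 3 domains nearest to Zyx, with a pseudocount of 1. Peak-rich domains held at least 5% of a list. Replicates were taken as labelled; where they are not separate cultures, the spread is technical. The functions were tested on simulated lists, in which 200 of 200 planted sites were classed correctly, and overlap counts equalled those of bedtools 2.31.1 in 12 of 12 pairs. Python 3.11.15, scipy 1.17.1 and matplotlib 3.10.9 were used.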

Additional observations from a re-analysis of the deposited data

How the results depend on the processing

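A log2 fold enrichment of at least 2 removed no Zyx peak, and widening the window by 5 kb added none, so neither tested anything. With −log10 p of at least 8, mean peak numbers were 0.5 in C2C12 and 2.5 in differentiated C2C12 (ratio 5), covered lengths 21.5 and 281.5 nt (ratio 13.1) and sites 5, of which 0 were in all lists, 0 in both differentiated lists only and 1 in both states. Replicate overlap was then 0% in both states, overlap of differentiated peaks with single C2C12 lists was 10% (23.7% otherwise), and the mean difference in enrichment was -1.67, from 1 site. The lists at this limit hold 0 to 4 Zyx peaks. Joining touching peaks of a list gave a peak ratio of 2. Joining peaks up to 100 nt apart gave 6 sites, 2 in all lists and 2 in both differentiated lists only. A reciprocal overlap of 50% gave 66.7% and 42.1% between replicates of C2C12 and differentiated C2C12, and 16.7% and 10.5% between states for C2C12 and differentiated peaks. Within 100 nt, 44.7% of differentiated peaks had a peak of a single C2C12 list. The shares between states in this section pool all pairs of a C2C12 and a differentiated list. Over the settings that left out 1 library each, sites in all lists ran from 1 to 3, sites in C2C12 only from 0 to 2 and sites in both states from 2 to 4. The extremes came without a differentiated library, as given for sites 4, 5 and 9. The peak ratio ran from 1.36 to 1.90, the covered ratio from 2.27 to 3.17 and the mean enrichment difference from -1.05 to -0.44. The rank of Zyx among domains was 8 with linking up to 5 kb. Linking up to 1 kb split Zyx into 2 domains, of which the larger had rank 7. Likeness by covered length named 3 other domains, with 0 in common. The cause was not tested. No paired analysis was possible because no test was fitted and the labels do not say that libraries of the same letter share a batch.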
